A study of Mus musculus with 12 samples.

Results

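Pitx1, Tbx4, Tbx5 and Isl1 are the transcription factor genes that separate hindlimb from forelimb in the mouse embryo, and their expression was followed in limbs with and without Lmx1b. Every probe set that the array platform's annotation assigned to 1 of these genes was taken, which gave 8 probe sets, 2 for each of the 4 genes, out of 45037 probe sets in all. Each of these 8 named a single gene, and 0 further probe sets named a member together with another gene.

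The arrays carried RNA from limbs of C57BL/6 embryos that were either wild type (WT, Lmx1b +/+) or homozygous for the Lmx1b knockout (KO, Lmx1b -/-). Lmx1b, a homeobox gene of the dorsal limb mesenchyme, is needed for dorsal structures to form, and the series asked which genes depend on it while the limb is dorsalized. The 12 arrays form 6 groups of 2: WT and KO at 11.5, 12.5 and 13.5 days post coitum (dpc). At 11.5 and 12.5 dpc the sample was the limb bud together with the girdle, and at 13.5 dpc it was the distal limb, made of zeugopod and autopod. Each array read a pool of limbs, and the 2 pools of a group came from different embryos, so the errors below measure the spread between pools. The number of limbs per pool is 6 throughout in the extraction protocol, whereas the series text gives 6, 3 and 6 at the successive stages. Forelimbs and hindlimbs are both named as sources, but neither the labels nor the series text say how many of each entered a pool. The scan series changed with the stage, as did the dissected part at the last one, so these cannot be told apart, and the proportion of hindlimbs in the pools is a further quantity that cannot be told apart from stage. In such bulk RNA, fewer cells of a type and less RNA per cell also cannot be told apart.

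Pitx1, a paired-type homeodomain factor, is made in the hindlimb bud, where it directs hindlimb morphology and acts upstream of Tbx4, and not in the forelimb bud. Tbx4 and Tbx5 are closely related T-box factors: Tbx5 marks the forelimb and is needed to start its outgrowth, and Tbx4 marks the hindlimb and is needed for its continued outgrowth. Isl1, a LIM homeodomain factor, acts before the hindlimb bud appears and then fades from most of the bud; it is also made in motor and sensory neurons and in heart progenitors.

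The values were log2 expression values, and 6.28 was the median of all of them over probe sets and arrays, which serves below as a mark for dim signals. The limb identity of the material was clear on all arrays: the mean of 6 limb mesenchyme genes (Prrx1, Prrx2, Twist1, Twist2, Msx1, Msx2) lay between 10.84 and 11.32. Of 7 heart muscle genes, 6 stayed at or below the median on every array. Lmx1b itself was lower in KO by 2.84 ± 0.20 log2 units over the stages (difference -2.84 ± SE, limma adjusted p = 0.000654); the sources used here do not place its probes relative to the deleted part. At 13.5 dpc its value was 10.27 and 10.19 in WT, 7.48 in KO replicate 1 and 8.88 in KO replicate 2. The latter array stood apart in other genes too. Meis1, a gene of the proximal limb, was at 9.46 there against 7.01 to 7.76 on the other 13.5 dpc arrays. The embryonic globin gene Hbb-bh1 was at 12.91 against 8.40 to 10.48. Not all genes of these kinds followed: the proximal limb gene Irx5 was lower there, at 9.15 against 9.42 to 9.63. The embryonic globin gene Hbb-y, at 13.86, lay within the 13.80 to 13.88 of the others. KO replicate 2 at 12.5 dpc stood apart in the heat shock gene Hspa1a, at 9.36 against 4.80 to 5.71 on the other 11 arrays. Hspa1b was also higher there, at 9.81 against 6.48 to 7.47. The rest of the heat shock list did not follow: Hspb1 was lower, at 9.73 against 9.84 to 10.71. Dnajb1 and Hsph1 lay within the range of the other arrays.

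The main pattern was a divergence at 13.5 dpc. Pitx1 and Tbx4 rose steeply between 12.5 and 13.5 dpc in both genotypes, Tbx5 fell, and Isl1 rose by a smaller amount as the mean of the genotypes. All 8 probe sets passed the limma test for this step at an adjusted p under 0.05, where 34.2% of all probe sets passed (16.6% higher, 17.6% lower at 13.5 dpc). In KO against WT, 0 of the 8 passed at any stage or over the mean of the stages. There 0.00888% to 0.335% of all probe sets passed, so 0 of 8 is close to that background.

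**Figure D1:**
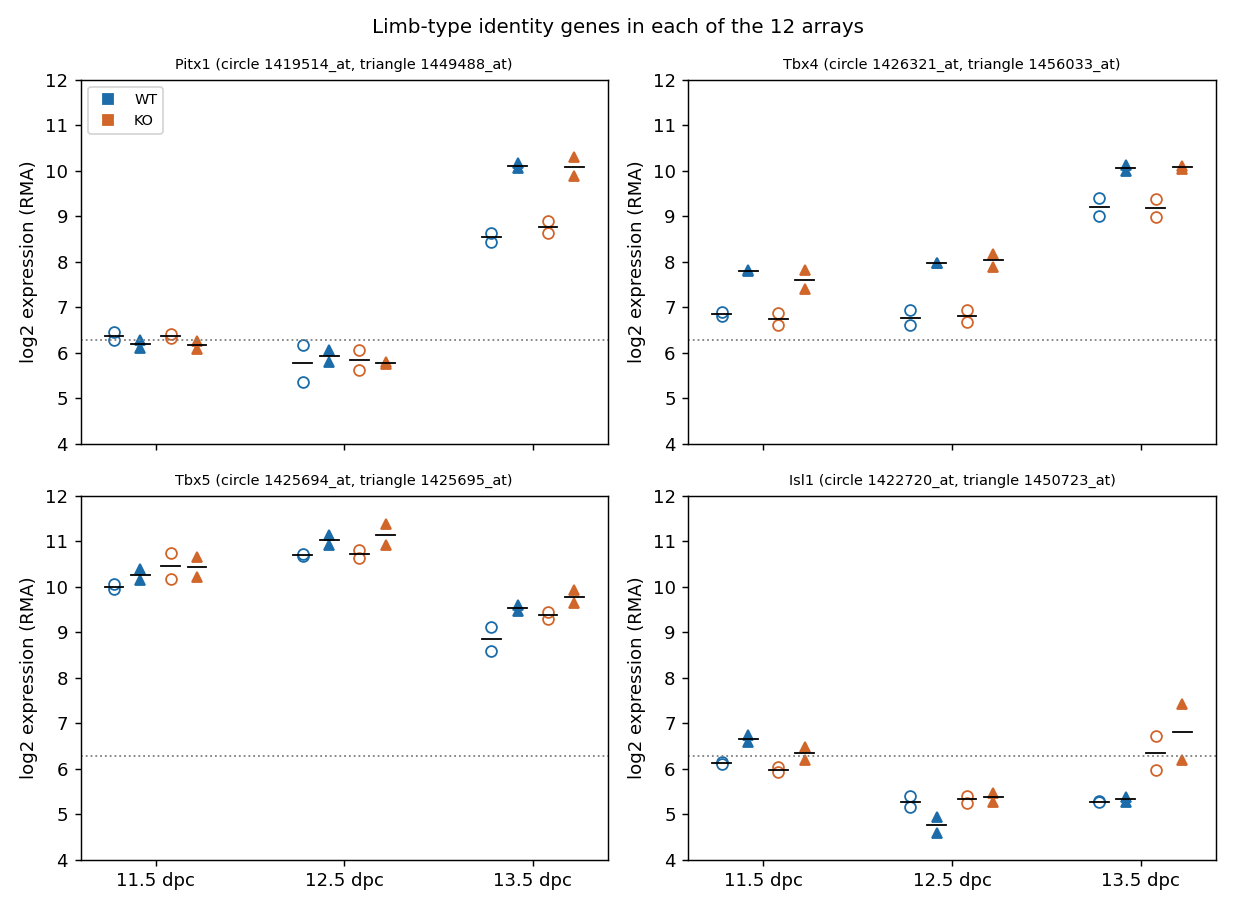
Log2 expression (RMA) of Pitx1, Tbx4, Tbx5 and Isl1 by stage, with 1 symbol per array, open circles and filled triangles for the 2 probe sets of a gene, blue for WT, orange for KO, black bars for group means of 2 arrays and a dotted line at the median of all values, 6.28. Pitx1 and Tbx4 are higher on all 4 arrays of 13.5 dpc than on the 8 earlier ones, Tbx5 is lower, and Isl1 at 13.5 dpc is higher in both KO arrays than in both WT arrays.

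Pitx1 was close to the median of all probe sets in the early limb buds. On probe set 1449488_at it lay at 6.10 and 6.28 in WT and 6.09 and 6.26 in KO at 11.5 dpc, and at 5.80 and 6.06 in WT and 5.81 and 5.76 in KO at 12.5 dpc. At 13.5 dpc the same probe set gave 10.17 and 10.06 in WT and 9.88 and 10.30 in KO. Pitx1 thus went from a dim signal to a bright one, and the 13.5 dpc arrays did not overlap the earlier ones. The step was 4.24 ± 0.11 (SE) log2 units, 18.9-fold (limma adjusted p = 2.02e-08), which was the largest rise among the 45037 probe sets. WT contributed 4.18 and KO 4.30 to that mean.

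The other Pitx1 probe set, 1419514_at, gave the same course over a smaller range. It lay between 5.37 and 6.46 on the 8 early arrays and at 8.44, 8.63, 8.64 and 8.90 at 13.5 dpc, a step of 2.84 ± 0.17 (limma adjusted p = 1.22e-05), the sixth largest rise. The median difference between the 2 probe sets on an array was -0.16 before 13.5 dpc and 1.41 at 13.5 dpc, so the fold change of Pitx1 depends on the probe set while its direction does not.

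Between 11.5 and 12.5 dpc Pitx1 was slightly lower, by 0.32 ± 0.11 on 1449488_at (difference -0.32, limma adjusted p = 0.0394) and by 0.56 ± 0.17 on 1419514_at (difference -0.56, limma adjusted p = 0.0271). In this comparison 7 of the 8 member probe sets passed, against 31.7% of all probe sets (15.6% higher, 16.1% lower). The Pitx1 call on the brighter probe set was lost when any single array was left out, except either KO array of 13.5 dpc or WT replicate 2 of 12.5 dpc. Its adjusted p without 1 array ranged from 0.0191 to 0.138.

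Tbx4, unlike Pitx1, was above the median from the start. On probe set 1456033_at it lay at 7.79 and 7.82 in WT and 7.40 and 7.82 in KO at 11.5 dpc, and at 7.97 and 7.98 in WT and 8.17 and 7.89 in KO at 12.5 dpc. At 13.5 dpc it reached 10.00 and 10.12 in WT and 10.11 and 10.05 in KO. The 4 late arrays lay within a narrow band well above the 8 early ones. The step from 12.5 to 13.5 dpc was 2.07 ± 0.10 log2 units, 4.18-fold (limma adjusted p = 8.95e-06).

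Probe set 1426321_at of Tbx4 gave a step of similar size. It lay between 6.60 and 6.94 on the early arrays and at 9.00 and 9.41 in WT and 9.39 and 8.98 in KO at 13.5 dpc. The step was 2.40 ± 0.13 (limma adjusted p = 1.02e-05), and the 2 Tbx4 probe sets ranked 12 and 21 by size of rise among all probe sets. From 11.5 to 12.5 dpc they differed: 1456033_at rose by 0.30 ± 0.10 (limma adjusted p = 0.0453) and 1426321_at gave a difference of -0.0015 (limma adjusted p = 0.995). The former call held without KO replicate 2 of 11.5 dpc or KO replicate 2 of 12.5 dpc and was lost without any other single array.

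Tbx5, the forelimb factor, was bright at every stage and ran the other way. On probe set 1425695_at it lay at 10.39 and 10.14 in WT and 10.21 and 10.66 in KO at 11.5 dpc. Its values rose to 10.91 and 11.14 in WT and 11.38 and 10.91 in KO at 12.5 dpc, and dropped to 9.60 and 9.47 in WT and 9.63 and 9.93 in KO at 13.5 dpc. Tbx5 was thus highest at 12.5 dpc, and every 13.5 dpc array lay below every earlier one, a separation seen in the same direction for 4.74% of all probe sets. The rise to 12.5 dpc was 0.73 ± 0.14 (limma adjusted p = 0.00273), and the drop to 13.5 dpc was -1.43 ± 0.14, 2.69-fold (limma adjusted p = 9.62e-05).

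On the other Tbx5 probe set, 1425694_at, the early arrays lay between 9.94 and 10.81, and the late ones at 8.58 and 9.11 in WT and 9.30 and 9.43 in KO. The differences were 0.49 ± 0.14 to 12.5 dpc (limma adjusted p = 0.0240) and -1.61 ± 0.14 to 13.5 dpc (limma adjusted p = 6.89e-05). Both probe sets therefore gave the same order of stages. By size of fall to 13.5 dpc they ranked 48 and 86 of 45037, so Tbx5 changed less, relative to other probe sets, than Pitx1 or Tbx4.

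Separation of all 4 late arrays above all 8 early ones, seen for both Pitx1 and both Tbx4 probe sets, occurred in 4.12% of all probe sets. Expressed as a profile over the 12 arrays, each minus its own mean, Tbx4 ranked second of 18192 genes in likeness to Pitx1, with a root mean square difference of 0.93 log2 units. Tbx5 ranked 18146 of 18192 against Pitx1 and 18111 against Tbx4, close to the least alike. Isl1, the other hindlimb factor, ranked 7885 against Pitx1 and 17351 against Tbx4, so likeness did not simply follow limb type. The distances are not scaled to the span of a gene.

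**Figure D2:**
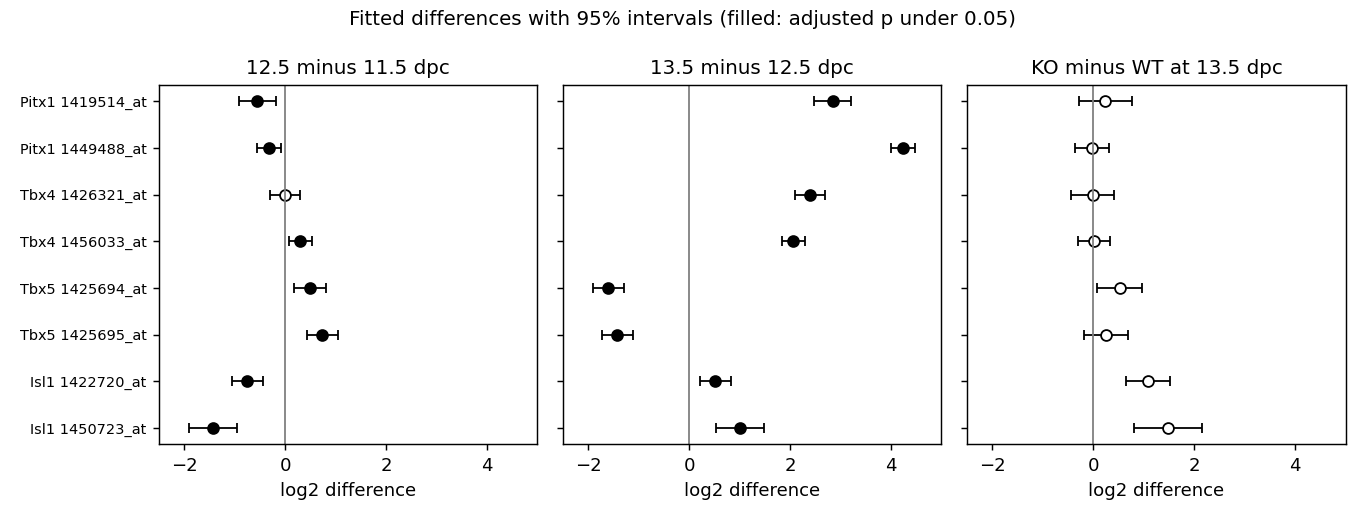
Fitted log2 differences (points) with 95% intervals (bars) for the 8 probe sets, between 12.5 and 11.5 dpc, between 13.5 and 12.5 dpc, both as the mean of the genotypes, and between KO and WT at 13.5 dpc; filled points have a limma adjusted p under 0.05 over 45037 probe sets. All 8 points are filled in the middle panel and none in the right one, where both Isl1 probe sets lie farthest from 0.

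Isl1 lay near or below the median of all probe sets on most arrays, and fell to 12.5 dpc. On probe set 1450723_at it lay at 6.58 and 6.74 in WT and 6.48 and 6.20 in KO at 11.5 dpc, and at 4.59 and 4.95 in WT and 5.47 and 5.26 in KO at 12.5 dpc. The difference was -1.43 ± 0.22 (limma adjusted p = 0.000879), and on probe set 1422720_at it was -0.75 ± 0.14 (limma adjusted p = 0.00251). The latter lay at 6.16 and 6.10 in WT and 6.03 and 5.92 in KO at 11.5 dpc, and at 5.16 and 5.39 in WT and 5.41 and 5.24 in KO at 12.5 dpc. Every 12.5 dpc array lay below every 11.5 dpc array on both probe sets, as for 17.2% of all probe sets. Isl1 thus fell at the step at which Tbx5 rose.

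At 13.5 dpc the Isl1 values split by genotype. On 1450723_at they were 5.39 and 5.28 in WT and 6.19 and 7.43 in KO, and on 1422720_at 5.28 and 5.26 in WT and 5.98 and 6.72 in KO. Both KO arrays lay above both WT arrays on both probe sets, a pattern that 14% of all probe sets showed at this stage. The change from 12.5 dpc was 0.56 and -0.0030 in WT on the 2 probe sets in that order, and 1.44 and 1.03 in KO. With KO replicate 2 of 12.5 and of 13.5 dpc left out, the KO change was 0.72 and 0.57, from 1 array a stage. The KO rise exceeded the WT rise by 0.88 and 1.03, which did not pass (limma adjusted p = 0.571 and 0.349), and by 0.15 and 0.57 without those arrays (limma adjusted p = 0.808 and 0.204). As a mean of the genotypes the change was 1.00 ± 0.22 (limma adjusted p = 0.00568) and 0.51 ± 0.14 (limma adjusted p = 0.0169). Without KO replicate 2 of 12.5 and of 13.5 dpc, it was 0.64 (limma adjusted p = 0.00715) and 0.28 (limma adjusted p = 0.0374).

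The comparison of genotypes asks whether loss of Lmx1b alters the limb-type factors. On the brighter probe sets of Pitx1 and Tbx4 the KO and WT arrays overlapped at every stage. KO minus WT for Pitx1 was there -0.01 at 11.5 dpc, -0.15 at 12.5 dpc and -0.03 at 13.5 dpc, each ± 0.15, with 95% intervals that together ran from -0.48 to 0.32. For Tbx4 it was -0.20, 0.06 and 0.02, each ± 0.14, with intervals that ran from -0.51 to 0.37. Changes beyond those bounds lie outside the intervals of these brighter probe sets, and smaller ones remain possible. The bounds are not the detection limit of the adjusted test. With 2 pools a group, larger differences can also fail it. The share of all 45037 probe sets that passed was 0.00888% at 11.5 dpc, 0.335% at 12.5 dpc, 0.0178% at 13.5 dpc and 0.0711% for the mean over the stages, so 0 of 8 is close to that background. On the dimmer Pitx1 probe set both KO arrays lay above both WT arrays at 13.5 dpc, by 0.24 ± 0.24 (limma adjusted p = 1.00). This pattern was seen for 14% of all probe sets, and the 95% interval ran from -0.28 to 0.76. Without the KO arrays that stood apart, KO minus WT at 13.5 dpc on the brighter probe sets was -0.24 for Pitx1 (limma adjusted p = 0.737) and 0.05 for Tbx4 (limma adjusted p = 0.966), and at 12.5 dpc -0.13 and 0.20 (limma adjusted p = 0.728 and 0.605).

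Tbx5 was not below WT in the KO mean at any stage. On 1425695_at KO minus WT was 0.17, 0.12 and 0.25 at the 3 stages, each ± 0.19, and on 1425694_at 0.45, 0.03 and 0.52, each ± 0.20. Without the KO arrays that stood apart, the values at 12.5 and 13.5 dpc were 0.35 and 0.10 on 1425695_at (limma adjusted p = 0.433 and 0.933) and 0.12 and 0.45 on 1425694_at (limma adjusted p = 0.879 and 0.722). At 13.5 dpc both KO arrays lay above both WT arrays on both Tbx5 probe sets, as for 14% of all probe sets. The limma adjusted p was 1.00 on both probe sets at 13.5 dpc, and for the mean over the stages, 0.18 ± 0.11 and 0.34 ± 0.12, it was 0.809 and 0.518. At 13.5 dpc 2059 of 45037 probe sets had an unadjusted p under 0.05, among them 1425694_at of Tbx5 (unadjusted p = 0.0249 in limma). The same probe set was under 0.05 at 11.5 dpc (unadjusted p = 0.0454 in limma), as were 690 of 45037. Over the stages it was so too (unadjusted p = 0.0150 in limma), as were 3295 of 45037. The other Tbx5 probe set, 1425695_at, was not under 0.05 in any of these comparisons.

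Isl1 had the largest genotype difference of the 4 genes, at 13.5 dpc. KO minus WT was 1.48 ± 0.31 on 1450723_at (95% interval 0.80 to 2.16, limma adjusted p = 0.427) and 1.08 ± 0.20 on 1422720_at (0.64 to 1.51, limma adjusted p = 0.313). By size these ranked 16 and 40 from the highest of 45037 probe sets, yet neither passed the adjusted threshold. At 11.5 dpc the differences were -0.32 ± 0.31 and -0.15 ± 0.20, and at 12.5 dpc 0.60 ± 0.31 and 0.05 ± 0.20. At 11.5 dpc both KO arrays lay below both WT arrays on both probe sets, as for 19.9% of all probe sets. At 12.5 dpc both KO arrays lay above both WT arrays on 1450723_at, as for 16.9% of all probe sets, and the genotypes overlapped on 1422720_at. The test of whether the KO effect changed from stage to stage passed for 0 of 8 member probe sets, and for 0 of 45037 in limma, where 3138, 4213 and 737 probe sets had an unadjusted p under 0.05 in the 3 comparisons of stages.

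The Isl1 difference was larger on the KO array that stood apart. With KO replicate 2 of 12.5 and of 13.5 dpc left out, KO minus WT at 13.5 dpc was 0.86 on 1450723_at (limma adjusted p = 0.445) and 0.70 on 1422720_at (limma adjusted p = 0.320). With KO replicate 1 of 13.5 dpc left out instead, 1450723_at gave 2.10 and passed (limma adjusted p = 0.0101), as did its mean over the stages, 0.79 (limma adjusted p = 0.0439); there the lone KO array is assumed to vary like the other groups. In the full set that mean was 0.59 ± 0.18 (limma adjusted p = 0.451).

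Markers of other tissues that make Isl1 gave these values beside it. Of 10 neuron genes (such as Tubb3, Nefl and Stmn2), 8 were measured and 3 of those never exceeded the median of all probe sets. Their mean per array at 13.5 dpc was 6.34 to 6.35 in WT and 6.37 to 6.40 in KO, and 0 of 8 passed in KO against WT. Single genes differed within that mean. Both KO arrays lay above both WT arrays for Stmn2 (7.87 and 7.85 against 7.47 and 7.51) and the dim Mnx1 (4.23 and 4.19 against 3.73 and 3.94). This pattern was seen for 14% of all probe sets. Nefm went the other way (7.39 and 7.58 in KO against 8.01 and 7.78), and in the other measured neuron genes the genotypes overlapped. The 7 heart muscle genes had a mean of 4.62 to 4.65 in WT and 4.68 to 4.73 in KO. The mean of 8 proximal limb and girdle genes at 13.5 dpc lay at 8.58 to 8.67 in WT, at 8.64 in KO replicate 1 and at 9.62 in KO replicate 2. The mean for KO replicate 1 hides a split among these genes. Meis1 (7.76 against 7.12 and 7.01 in WT), Meis2, Shox2 and Irx3 lay above both WT arrays there. Emx2 (7.31 against 8.92 and 8.80 in WT), Pax1 and Irx5 lay below both, and Tbx15 lay between them. In KO against WT, 0 of the 8 passed at 13.5 dpc. At 12.5 dpc 1 of the 8 passed, lower in KO, and so did 1 for the mean over the stages. The part of proximal tissue in the Isl1 values was not tested.

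The other genes that distinguish the limbs were taken from a list of 7 hindlimb-associated and 7 forelimb-associated genes. Of the hindlimb-associated genes, 5 were measured (Pitx1, Tbx4, Isl1, Hoxc9 and Hoxc10), and 4 of them were higher at 13.5 than at 12.5 dpc. The median difference was 2.07, which is the value of Tbx4 itself. Pitx1, Tbx4 and Isl1 are the members described above, so this count and median largely repeat their results. Only Hoxc9 and Hoxc10 add to them. Over the brightest probe set of all 18193 genes, 20% were higher and the median was 0.021. The only non-member among the 4 was Hoxc10, a gene of the posterior Hox series that is made in the hindlimb. It lay between 4.66 and 5.97 on the early arrays, at 7.35 and 7.35 in WT and at 8.78 and 9.71 in KO at 13.5 dpc, a step of 3.10 ± 0.23 (limma adjusted p = 4.19e-05). Hoxc9 stayed between 6.98 and 7.39 on all 12 arrays.

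Hoxc10 shared with Isl1 the split by genotype at 13.5 dpc. Both KO arrays lay above both WT arrays, as for 14% of all probe sets, by 1.89 ± 0.33 (limma adjusted p = 0.257). Without the 2 KO arrays that stood apart, the difference was 1.43. On the brighter probe sets of Pitx1 and Tbx4 the genotypes overlapped on the same arrays, and their 13.5 dpc KO means differed from WT by 0.03 log2 units or less.

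Of the 7 forelimb-associated genes, 1 rose (Tbx5) and 4 fell between 11.5 and 12.5 dpc, with a median of -1.46; over all 18193 genes 11.4% rose, 19.8% fell and the median was -0.032. Those that fell were Hox genes of the anterior limb and trunk. Hoxb5 lay at 7.18 to 7.64 at 11.5 dpc and at 4.65 to 5.03 at 12.5 dpc, and Hoxc4, Hoxc5 and Hoxc6 changed by -1.78, -2.31 and -1.46 (limma adjusted p = 0.0144, 0.0208 and 0.00176). Tbx5 and these Hox genes therefore moved in opposite directions at that step, when both samples held the girdle.

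Between 12.5 and 13.5 dpc, 2 of the 7 fell, Tbx5 and Hand2, a factor of the posterior limb margin (-0.49 ± 0.10, limma adjusted p = 0.00369), against 15.9% of all genes. The list median was -0.57. Without the 2 KO arrays that stood apart, 6 of 7 fell and the median was -1.20. Hoxc5 shows the effect of these arrays: at 13.5 dpc it was 5.20 and 5.06 in WT, 5.63 in KO replicate 1 and 8.96 in KO replicate 2, and at 12.5 dpc it was 7.91 and 7.98 in WT, 8.44 in KO replicate 1 and 5.98 in KO replicate 2. On KO replicate 2 of 13.5 dpc Tbx5 was also the highest of the 4 late arrays on both probe sets, at 9.93 and 9.43.

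**Figure D3:**
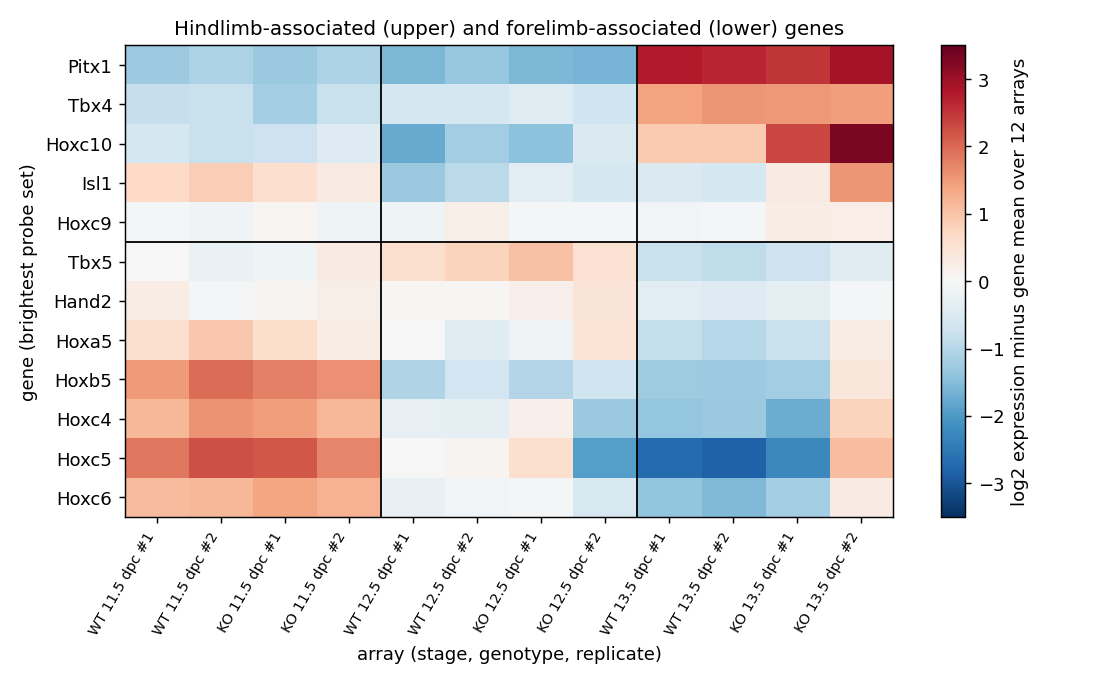
Expression of 5 hindlimb-associated genes (above the horizontal line) and 7 forelimb-associated genes (below it), each by its brightest probe set, on the 12 arrays in columns; colour gives the log2 value minus the gene's mean over the arrays, red above and blue below. Pitx1, Tbx4 and Hoxc10 are above their mean on all 4 arrays of 13.5 dpc, and the Hoxb5, Hoxc4, Hoxc5 and Hoxc6 rows are below it there except on KO replicate 2.

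Other tissue lists also differed between these stages. All 7 surface ectoderm genes (such as Krt5, Krt14 and Trp63) were higher at 13.5 than at 12.5 dpc, with a median of 0.99, and their mean per array was 8.33 to 8.93 at 12.5 dpc and 9.49 to 9.96 at 13.5 dpc. Of 8 proximal limb and girdle genes, 6 fell between 11.5 and 12.5 dpc, where 19.8% of all genes fell, and 4 rose and 2 fell between 12.5 and 13.5 dpc, where 20% rose and 15.9% fell. Without the KO arrays that stood apart, 3 rose and 3 fell at the later step, and the list median went from 0.56 to 0.087. The part of tissue make-up in the changes of Pitx1, Tbx4 and Tbx5 was not tested.

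Tbx4 and Tbx5 each have a T-box gene beside them in the genome, which permits a comparison within each pair. In RefSeq gene order, Tbx2 is next to Tbx4 on chromosome 11 and Tbx3 is next to Tbx5 on chromosome 5; both are T-box repressors made along the margins of fore- and hindlimb. Tbx2 lay at 9.24 and 9.36 in WT and 8.65 and 8.74 in KO at 11.5 dpc, and between 7.94 and 8.64 thereafter. Its changes were -0.90 ± 0.10 and then 0.33 ± 0.10 (limma adjusted p = 0.000185 and 0.0272), so at the step where Tbx4 rose by 2.07 its neighbour rose by a small amount. Tbx3 fell at both steps, by -0.31 ± 0.09 and -0.92 ± 0.09 (limma adjusted p = 0.0226 and 9.71e-05). Tbx3 and Tbx5 thus moved in opposite directions to 12.5 dpc and in the same direction to 13.5 dpc.

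Tbx3 at 13.5 dpc was 8.05 and 8.03 in WT and 8.42 and 8.82 in KO, a difference of 0.58 ± 0.13 that did not pass (limma adjusted p = 0.465), and of 0.38 without the KO arrays that stood apart (limma adjusted p = 0.559). Tbx2 in KO was below WT by 0.60 ± 0.14 at 11.5 dpc (difference -0.60, limma adjusted p = 1.00). Of 14 other T-box genes 13 were measured. From 12.5 to 13.5 dpc 2 rose and 4 fell, where 20% of all genes rose and 15.9% fell, none by more than the 0.92 of Tbx3, so Tbx4 and Tbx5 had the largest changes of the family at this step.

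**Figure D4:**
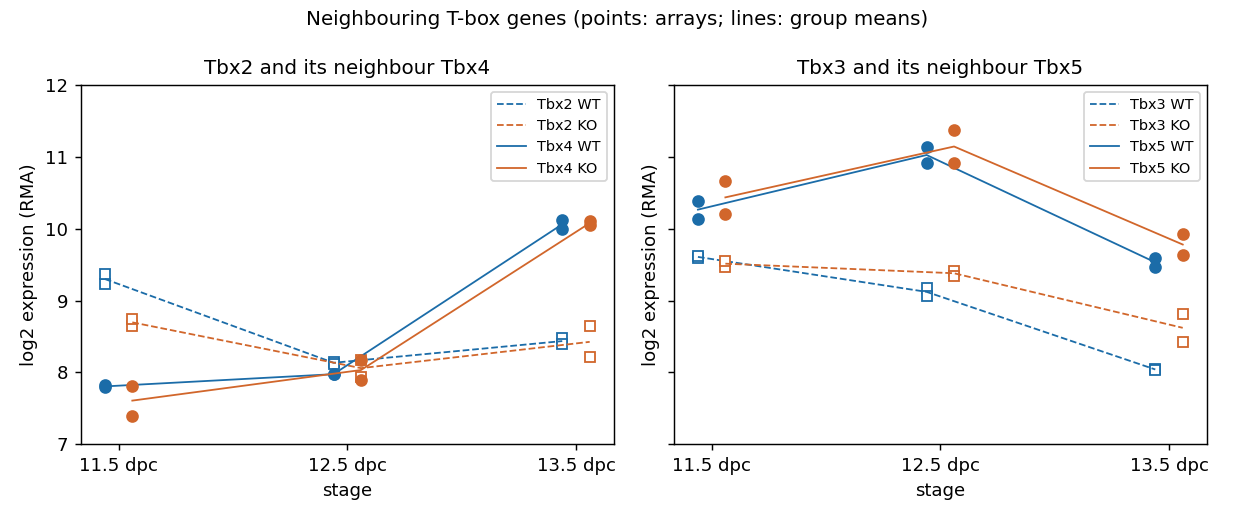
Log2 expression (RMA) by stage of Tbx2 (open squares, dashed lines) with Tbx4 (filled circles, solid lines) at left and of Tbx3 (open squares, dashed lines) with Tbx5 (filled circles, solid lines) at right, with 1 symbol per array, lines through group means, blue for WT and orange for KO. Tbx4 climbs at 13.5 dpc while Tbx2 stays between 8.21 and 8.64, and Tbx3 and Tbx5 both fall; heights of different genes are read by different probes and are not comparable.

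Partners and targets of the factors were described by 2 further lists. Of 19 LIM homeodomain genes and partners of Isl1, 3 rose and 6 fell to 12.5 dpc, where 11.4% of all genes rose and 19.8% fell. To 13.5 dpc 10 rose and 2 fell, where 20% rose and 15.9% fell; without the KO arrays that stood apart, 9 rose and 4 fell. The largest of these changes to 13.5 dpc were in Lmx1b (1.11 ± 0.25, limma adjusted p = 0.00670) and in Lhx9 (-0.83 ± 0.12, limma adjusted p = 0.000694). Lmx1b is the targeted gene, so its mean joins genotypes at unlike levels. In WT it went from 9.29 and 9.55 to 10.27 and 10.19. In KO it went from 6.50 and 7.02 to 7.48 and 8.88, the last on the 13.5 dpc array that stood apart. Of 11 genes of limb initiation and T-box targets, 10 were measured. To 12.5 dpc 3 of them rose and 5 fell, and to 13.5 dpc 2 rose and 2 fell, beside the same shares of all genes. The largest rise to 12.5 dpc was 0.73, in Fgfr2. Among those that fell at that step was Fgf10, the mesenchymal growth factor that Tbx5 and Tbx4 promote (-0.51 ± 0.15, limma adjusted p = 0.0224). Fgf8, its counterpart in the apical ridge, also fell (-2.13 ± 0.31, limma adjusted p = 0.000751). Neither Fgf10 nor Fgf8 passed at the later step, when Tbx4 rose and Tbx5 fell.

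Genes with the profile most like each factor were found over the 12 arrays by the root mean square difference of mean-centred values. For Pitx1 they were Hoxc10 (0.88), Tbx4 (0.93), Tnmd (0.96), Stk32b (0.98) and Dpt (1.06), and for Tbx4 they were Dpt (0.22), Arsi (0.39), Krt1 (0.40), Htra3 (0.41) and Rerg (0.42). The distances to Pitx1 are larger because few genes rose as far. Tbx5 was matched most closely by Vgll2 (0.18), Prkd1 (0.21), Tfpi (0.22), Kif5b (0.25) and Rb1 (0.25). Isl1 was matched by Gdnf (0.45), Wnt2 (0.45), Sc5d (0.46), Peg10 (0.46) and Rps25 (0.47), at distances that are wide beside its own span of 2.04 between group means.

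Promoter sequence was at hand for 2 of the 4 genes, Tbx4 and Isl1, as the 250 bases before the RefSeq start. Both were searched on both strands for the bicoid-type core TAATCC, which Pitx1 binds, and for the T-box half-site GGTGTGA; of 32851 such windows 6.25% hold the former and 3.33% the latter. The Tbx4 window, which lies inside the gene's annotated span, held neither. The Isl1 window held TAATCC once and GGTGTGA 0 times, and is shown because it is the only member window with a match. It lies at chr13:116309689-116309938 of GRCm38.p6, on the minus strand, and TAATCC is in capitals:
Isl1: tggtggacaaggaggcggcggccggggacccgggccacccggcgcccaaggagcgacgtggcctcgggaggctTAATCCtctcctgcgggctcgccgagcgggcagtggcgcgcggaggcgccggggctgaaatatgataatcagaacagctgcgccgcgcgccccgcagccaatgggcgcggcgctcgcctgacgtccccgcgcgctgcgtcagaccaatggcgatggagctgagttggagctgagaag
The match describes these letters and shows no binding.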

How the data were processed

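The deposited values are log2 expression values of 45101 probe sets on an Affymetrix mouse array. The authors used RMA, per the submitters' processing notes, with no version named. RMA corrects background, normalizes between arrays and summarises probes, and it compresses the fold changes of dim probe sets. The number of arrays limits precision. The 64 control probe sets were left out. Names came from the platform annotation, in which 34945 probe sets name 1 gene, 932 several and 9160 none; 34741 matched the RefSeq GRCm38.p6 gene table.

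A model of 6 group means over the 12 arrays (limma 3.58.1, lmFit and eBayes, R 4.3.3; 6 residual degrees of freedom) gave 9 two-sided contrasts with Benjamini-Hochberg adjustment over 45037 probe sets. The script was tested on simulated data. Every member probe set was named; genes of other lists were represented by their brightest probe set, named by size of difference, with all measured limb-type genes and the 5 nearest profiles. The members and lists were chosen with earlier results of these data known. Tbx2, Tbx3 and the arrays that stand apart were singled out after their values were seen. The alternatives were another normalization, centring, variance model, array weights, gene-level values, a filter on dim probe sets, each stage alone, the replicate number as a block, and arrays left out.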

Additional observations from a re-analysis of the deposited data

Results flagged for a closer look

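The fitted KO effect on Isl1 was negative at 11.5 dpc and positive at 13.5 dpc, but a change of sign was not established. At 11.5 dpc it was -0.32 ± 0.31 (SE) on 1450723_at and -0.15 ± 0.20 on 1422720_at, so its sign there is uncertain. On probe set 1450723_at both KO arrays lay below both WT arrays at 11.5 dpc (19.9% of all probe sets) and above them at 12.5 dpc (16.9%) and 13.5 dpc (14%), so the KO effect differed by 0.92 log2 units between 12.5 and 11.5 dpc and by 1.80 between 13.5 and 11.5 dpc. On 1422720_at, where the genotypes overlapped at 12.5 dpc, the KO effect at 13.5 dpc exceeded that at 11.5 dpc by 1.23. In the limma test of the difference itself, 0 of these 3 passed (adjusted p = 0.734, 1.00 and 1.00 in that order). Without KO replicate 1 of 13.5 dpc, the second value was 2.42 (limma adjusted p = 0.0531), the lowest adjusted p among its alternatives. Without the KO arrays that stood apart, it was 1.18, and the value on 1422720_at was 0.85 (limma adjusted p = 1.00 for both).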

How the results depend on the processing

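The changes from 12.5 to 13.5 dpc of the brightest probe sets of all 4 genes kept their direction and stayed past the threshold in all 9 other settings and with each of the 12 arrays left out in turn (4 of 4 genes throughout). From 11.5 to 12.5 dpc 4 of 4 passed, 3 to 4 under other settings and 2 to 3 with 1 array left out, as the Pitx1 and Tbx4 calls were lost. In KO against WT 0 of 4 passed under other settings. With 1 array left out, 0 to 1 passed at 13.5 dpc and 0 to 1 for the mean over the stages, the 1 being Isl1 without KO replicate 1 of 13.5 dpc.

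The signs of KO minus WT near 0 changed with the setting, as the size of these values allows. With probe sets averaged per gene, Pitx1 was 0.020 over the stages and 0.11 at 13.5 dpc, and Tbx4 -0.00018 at 13.5 dpc. Without the 2 KO arrays that stood apart, Tbx4 was 0.015 over the stages. With 1 array left out, KO minus WT ranged at 11.5 dpc from -0.10 to 0.079 (Pitx1), -0.41 to 0.012 (Tbx4) and -0.054 to 0.40 (Tbx5). It ranged at 12.5 dpc from -0.081 to 0.20 (Tbx4) and -0.12 to 0.35 (Tbx5), and at 13.5 dpc from -0.24 to 0.19 (Pitx1) and -0.048 to 0.080 (Tbx4). Over the stages it ranged from -0.13 to 0.0086 (Pitx1) and -0.11 to 0.029 (Tbx4). The cause was not tested.

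The replicate numbers were not used as pairs, since KO and WT deviations of the same number correlated at 0.30, -0.14 and -0.055 at the 3 stages. With the replicate number as a block, 4 of 4 genes passed from 12.5 to 13.5 dpc, 3 of 4 from 11.5 to 12.5 dpc, where the block moved Tbx4 to an adjusted p of 0.0572 in limma, and 0 of 4 in KO against WT. With profiles over group means, 4, 3, 2 and 4 of the 5 nearest genes to Pitx1, Tbx4, Tbx5 and Isl1 were shared. Signal over background limits Isl1 and the early Pitx1 values, which lie near the median of all probe sets.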
